A study of Gallus gallus with 24 samples.

Results

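In the ventricles of normal chick embryos, 73 probe sets rose at least 2-fold from embryonic day 4 (E4) to E6 and at least 2-fold again from E6 to E10, with similar levels in the left and the right ventricle. They were selected on these measured values. On the log2 scale a probe set had to reach a pool mean of 6, to differ by no more than 0.7 between the left and right ventricle of normal hearts at E6, E8 and E10, to differ by no more than 0.7 between banded and normal ventricles at E5, and to gain at least 1 in each step. The E6 level was the mean of 3 pools and the E10 level that of the left and right pools. The limits on level, side and banding left 14089 of 38535 probe sets on the array, and the 73 members were 0.518% of those. The normal E4, E6 and E10 levels, the normal left-right differences and the response to banding are therefore given as a description, with no test. The ligated E8 pools entered the choice through the limit on level alone, which took the highest of all 12 pools; since all 73 members reached 6 in a normal pool, they decided no membership.

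The samples were 12 pools of ventricular RNA from chick embryos, each made from 6 to 12 specimens and hybridised to 2 arrays, so each condition had 1 pool and 2 technical arrays. No strain or sex is given in the labels. Normal pools held both ventricles together at E4, E5 and E6, and a single ventricle, left or right, at E6, E8 and E10. In the operated embryos, conotruncal banding (CTB), a constriction of the outflow tract, or left atrial ligation (LAL), which partly closes the left atrial appendage, was carried out in the egg at day 4 (Hamburger-Hamilton stage 24). Banded hearts gave 1 pool of both ventricles at E5, and ligated hearts gave a left and a right pool at E8. None of the pools is labelled as sham-operated, so an effect of ligation or banding cannot be told apart from an effect of the operation in general.

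Over these days the chick ventricle changes from a mostly trabeculated tube into a septated chamber with a compact muscle wall. Cardiomyocytes assemble and align myofibrils, cells from the epicardium enter the wall and become fibroblasts and vessel cells, and a collagen network forms around the muscle. At the same time the circulating red cells change from the primitive to the definitive line. Since whole tissue was pooled, more cells of a type and more RNA per cell cannot be told apart in any value below.

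The array medians lay between 4.02 and 4.14 and the SD between duplicate arrays between 0.107 and 0.159 per pool. Markers of cardiomyocytes were strong in every pool: the summed level of TNNT2, MYH7, ACTC1 and NPPA was between 16.59 and 16.85. Marker genes of endothelium summed to between 13.70 and 14.21, those of fibroblasts and epicardium to between 14.74 and 15.56, and those of red cells to between 16.52 and 17.38. The fibroblast and epicardium sum was lowest at E4, where the 73 probe sets were also lowest, as the choice of members largely fixed. From E4 to E5, COL1A1 went from 10.71 to 12.28, COL3A1 from 12.47 to 13.52 and POSTN from 14.00 to 14.16. TCF21 was not lowest at E4, with 11.84 there and 11.56, 11.49 and 11.87 in the E6 pools of both, left and right ventricles. The part of such cells in the members' rise was not tested. Macrophage markers summed to between 10.84 and 11.48 and neural markers to between 8.68 and 9.99. The summed smooth muscle markers, which rest on MYH11 and TAGLN, went from 12.13 at E4 to 10.12 and 10.45 at E10, while the longer smooth muscle list had a median gain of 0.80. Among the defining markers, ACTA2 of smooth muscle and C1QA of macrophages never reached the signal filter. That filter was 4.09, the 50th percentile of all values, and 20335 probe sets reached it in at least 1 pool.

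Of the 73 members, 59 carried a single gene symbol and belonged to 44 genes, 1 was listed for several genes, and 13 had no symbol in the platform annotation. A group of 13 genes had more than 1 member, among them COL14A1 and COL6A1 with 3 each. The 44 genes had 64 further probe sets on the array that were not members. Of these, 40 also gained at least 1 from E4 to E10 and none lost as much, while 30 stayed below the level of 6. For 20 of the genes, all probe sets on the array were members.

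The level at E4 ranged from 1.96 to 10.48 with a median of 6.41. The median over members was 8.25 at E5, 8.36 at E6, 9.58 at E8 and 9.92 at E10, and E10 levels ran from 6.88 to 14.69. The rise from E4 to E10 was between 4.37-fold and 254-fold, with a median of 10.0-fold. All 73 differed at least 2-fold between E4 and E10 with no overlap between arrays, which the choice of members fixed; of all 20335 filtered probe sets 6.70% were higher and 6.47% were lower by the same rule. In 72 members every E6 array lay above every E4 array and below every E10 array, an order met by 4.43% of filtered probe sets and again largely set by the choice. The exception was the COL6A1 probe set GgaAffx.2737.1.S1_s_at, which read 7.19 in the right E6 pool and 7.09 in the left E10 pool. At E4, 13 members read below the filter level, so their fold changes may depend on how the deposited values treat weak signals.

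**Figure D1:**
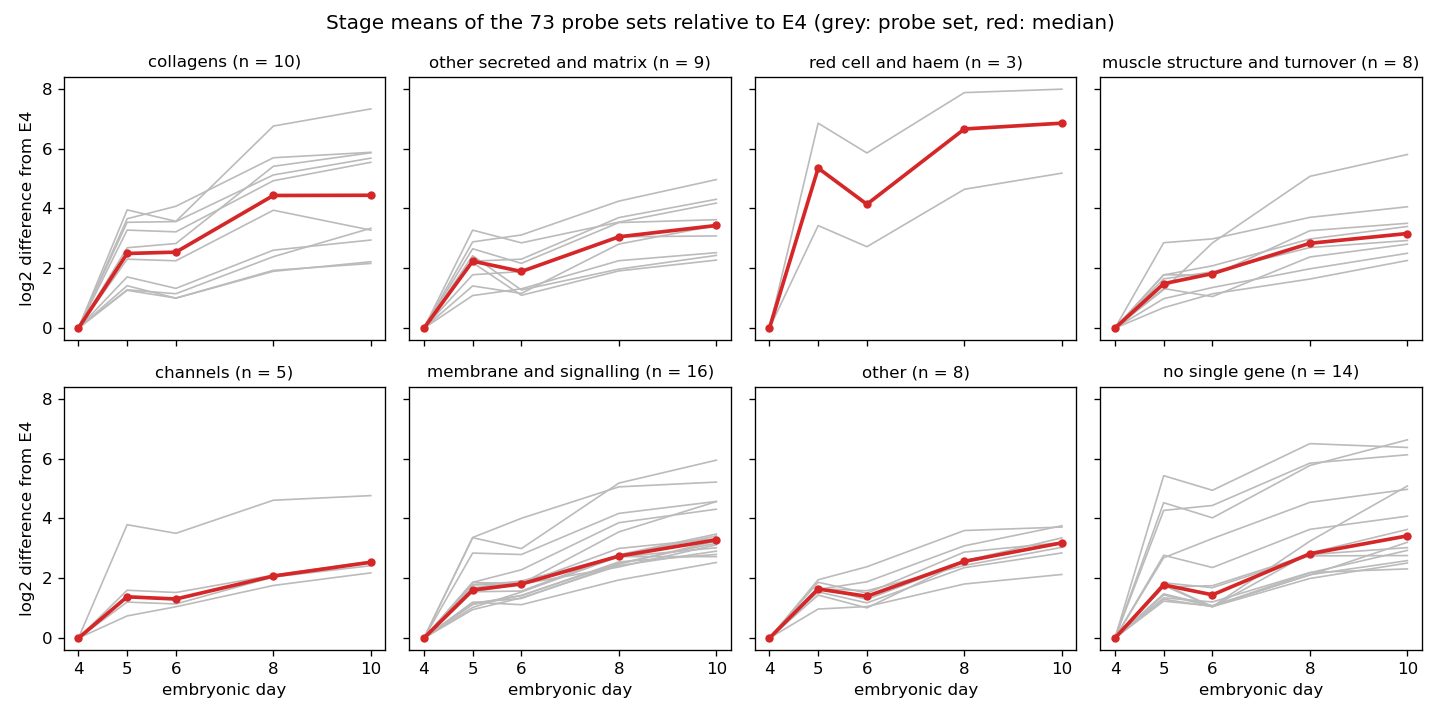
Stage means of the 73 probe sets on the log2 scale relative to E4 (vertical axis) against embryonic day (horizontal axis), in 8 panels by the role of the gene; grey lines are single probe sets and the red line is their median. The median lines climb from E4 to E5, change less to E6, and climb again to E8, with the widest median rises among collagens and the 3 red cell and haem probe sets.

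Collagens and other secreted proteins made up 19 of the 59 members with a single symbol. The grouping of genes by role was made after the members' names were seen. The collagen group held 10 probe sets of 5 genes and had a median gain of 4.44 from E4 to E10.

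COL14A1 encodes a collagen that sits on the surface of fibrils, and it rose most among the collagens. Its probe set Gga.2558.3.S1_a_at read 3.69 at E4, 7.64 at E5, 7.83 in the E6 pool of both ventricles, 7.18 and 6.76 in the left and right E6 pools, 10.68 and 10.21 in the left and right E8 pools, and 10.94 and 11.09 at E10. The steps fell before E5 and between E6 and E8, with little change from E5 to the E6 pool of both ventricles. The left and right E6 pools lay below E5. Its other members, Gga.13901.1.S1_at and Gga.2558.1.S1_a_at, gained 5.88 and 5.86. Duplicate arrays of Gga.13901.1.S1_at differed most among all members, with an SD of 1.22 at E4, where they read 3.88 and 2.15. Its gain from E4 to E10 was 5.05 from array 1 of each pool and 6.70 from array 2, the only fold among the members that a single array moved by over 1.5 times.

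COL21A1 encodes another fibril-associated collagen. Its probe set GgaAffx.10422.1.S1_at read 4.62 at E4, 8.16 at E5, 8.68 in the E6 pool of both ventricles, 7.83 and 8.04 in the left and right E6 pools, 9.79 and 9.69 at E8, and 10.30 and 10.31 at E10. The E10 arrays lay above those of every earlier age, and the other COL21A1 member, GgaAffx.10422.3.S1_s_at, gained 5.54. COL11A1, a chain of a minor fibrillar collagen, gained 3.34.

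COL6A1 and COL6A2 encode chains of collagen VI, which forms a beaded network around cells, and they started from high levels. COL6A2 (Gga.4257.1.S1_at) read 9.0 at E4, 10.72 at E5, 10.44, 10.35 and 10.21 in the E6 pools of both, left and right ventricles, 11.56 and 11.65 at E8, and 12.01 and 11.89 at E10. The COL6A1 probe sets GgaAffx.21771.1.S1_at and Gga.3110.1.S1_x_at read 10.20 and 10.00 at E4 and gained 2.16 and 2.22, among the smallest rises of the group. The third COL6A1 probe set, GgaAffx.2737.1.S1_s_at, followed another course. It read 4.12 at E4, 6.42 at E5, 5.34, 6.59 and 7.19 in the E6 pools of both, left and right ventricles, 8.16 and 7.96 at E8, and 7.09 and 7.70 at E10. It was the only member to fall by over 0.5 from E8 to E10 in the stage means, by 0.66, so the COL6A1 probe sets disagree on the last interval.

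Other secreted and matrix proteins formed a group of 9 probe sets from 8 genes, with a median gain of 3.43. COLEC10, a collagen-like lectin, gained 4.97, and PLAC9 gained 4.31. C1QTNF2, a secreted member of the C1q and tumour necrosis factor related family, read 2.84 at E4, 6.12 at E5, 5.97, 5.36 and 5.76 in the E6 pools of both, left and right ventricles, 6.22 and 6.55 at E8, and 6.89 and 7.16 at E10. Most of its gain was thus in place at E5. MATN2, an adaptor protein of matrix filaments, gained 3.62. CXCL12, the chemokine that binds CXCR4, gained 3.43, from 7.10 at E4 to 10.68 and 10.38 at E10. TFPI2, a secreted inhibitor of serine proteases, gained 3.08 and IGFBP2, which binds insulin-like growth factors, gained 2.52. Both LTBP2 probe sets, for a binding protein of elastic microfibrils, were higher at E5 (8.20 and 8.49) than in any E6 pool. COLEC10, MATN2, CXCL12, TFPI2, IGFBP2 and LTBP2 were named here after their values were seen, as were all genes below that belong neither to the fixed gene lists nor to the widest rises or ligation changes.

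The red cell and haem group, 3 probe sets of 2 genes, had the widest median gain, 6.85, and RHAG had the widest rise of any member. RHAG encodes the Rh-associated glycoprotein of the red cell membrane. Its probe set Gga.9086.1.S2_at read 2.16 at E4, 9.01 at E5, 9.34 in the E6 pool of both ventricles, 7.42 and 7.30 in the left and right E6 pools, 10.17 and 9.90 at E8, and 10.45 and 9.86 at E10. The rise of 7.99 was the largest among all filtered probe sets between E4 and E10, and 6.85 of it was present at E5. The RHAG probe set Gga.9086.1.S1_at started at 2.38 and gained 6.85. SOUL, a haem-binding protein, read 3.28 at E4 and 8.50 and 8.42 at E10. It gained 5.18, less than every COL14A1 and COL21A1 member. Outside this group, the member listed for several genes, Gga.4981.2.S1_at, went from 8.32 at E4 to 13.74 at E5. It reached 14.82 and 14.56 at E10, the highest level of any member.

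The fixed red cell markers did not rise in this way. HBA1, HBAD, HBE, HBZ, SLC4A1 and EPB42 belong to that list, which has 11 filtered probe sets of 7 genes. None of those 11 was at least 2-fold higher at E10 than at E4 and 2 were lower, against 6.70% and 6.47% of filtered probe sets. HBA1, HBAD, HBE and HBZ already read between 14.83 and 15.21 at E4. The highest value on any array was 16.09, so these globins had little room to show a 2-fold gain. HBE, an embryonic beta-type globin, read 14.83 at E4 and 13.21 in the left E10 pool, and HBZ, an embryonic alpha-type globin, read 15.16 and 11.90. The alpha globin HBA1 read 15.02 and 15.06 in the same pools. The part of a change in red cell content or line in the RHAG values was not tested.

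The pools of single ventricles at E6 read lower than the E6 pool of both ventricles in 61 of 73 members, by a median of 0.35. Over all filtered probe sets 52.2% were lower and the median difference was -0.01. Since the rule used the mean of the E6 pools, this is a description. The single ventricles were lower by at least 1 in 6 members: both RHAG probe sets (-1.98 and -2.14), LAPTM4B (-1.67), Gga.4981.2.S1_at, Gga.16106.1.S1_at and 1 LTBP2 probe set. They were higher by 1.55 in the COL6A1 probe set GgaAffx.2737.1.S1_s_at. How many of all filtered probe sets differed by at least 1 between these pools was not counted. The red cell membrane genes SLC4A1 and EPB42 also read higher in the pool of both ventricles (11.68 and 11.07) than in the left (10.91 and 10.65) and right (10.66 and 10.27) E6 pools. TFRC of the red cell list did so too (12.09 against 11.77 and 11.68), while HBA1, HBAD, HBE and HBZ lay between the left and the right pools. The summed red cell marker level was 17.21 in the pool of both, 17.30 in the left and 17.08 in the right. Whether the pools differed in blood content was not tested further.

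Muscle structure and protein turnover were represented by 8 probe sets of 7 genes, with a median E4 level of 7.90 and a median gain of 3.16. MYL10, a regulatory light chain of myosin, was the strongest member with a single symbol. It read 10.48 at E4, 13.34 at E5, 13.49, 13.58 and 13.32 in the E6 pools of both, left and right ventricles, 14.29 and 14.08 at E8, and 14.45 and 14.63 at E10. Much of its rise lay between E4 and E5. NRAP, a scaffold of myofibril assembly at the cell ends, read 8.56 at E4, 10.34 at E5, 10.82, 10.48 and 10.62 in the E6 pools (both, left and right, here and below), 11.57 and 11.50 at E8, and 11.86 and 12.05 at E10. SORBS2, an adaptor of the Z-disc, gained 2.5, and FHOD3, a formin that organises sarcomeric actin in mammals, gained 2.26.

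ASB15 and ASB18 encode ankyrin repeat proteins with a SOCS box, the kind of protein that presents substrates to ubiquitin ligases. ASB15 read 3.56 at E4, 4.85 at E5, 6.94, 5.81 and 6.48 in the E6 pools of both, left and right ventricles, 8.49 and 8.79 at E8, and 9.49 and 9.24 at E10. Between E5 and the E6 pool of both ventricles it gained 2.09, the most of any member. The ASB18 members gained 3.51 and 2.81, and the kelch family gene KLHL38 gained 2.93.

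**Figure D2:**
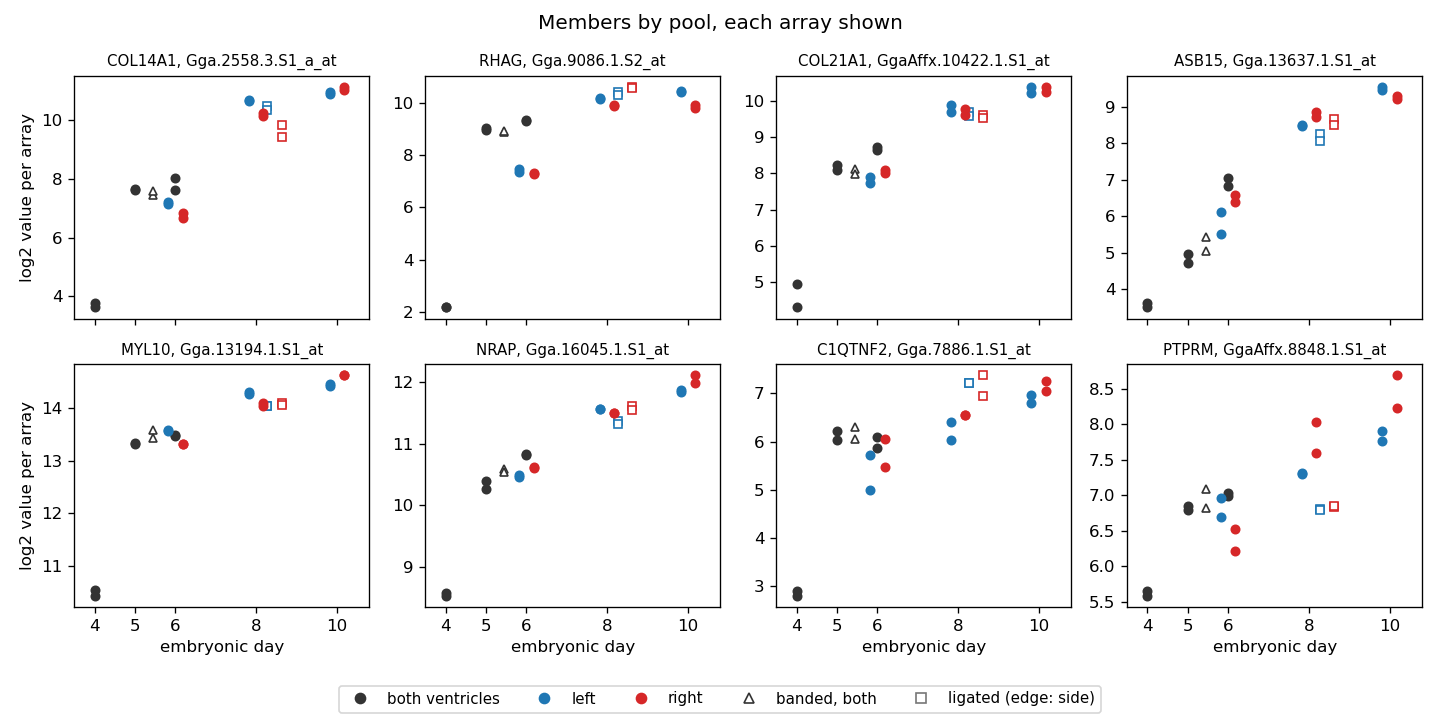
Log2 value of each array (vertical axis; the range differs between panels) against embryonic day (horizontal axis; points are shifted sideways within a day) for 8 members; filled circles are normal pools, triangles the banded E5 pool and open squares the ligated E8 pools, in black for both ventricles, blue for left and red for right. The E4 arrays are lowest in every panel. Banded arrays lie near the normal E5 arrays. On both sides, ligated arrays lie above the normal E8 arrays in RHAG and C1QTNF2 and below them in COL14A1, COL21A1, ASB15 and PTPRM. In NRAP the ligated arrays lie below on the left and above on the right. In MYL10 they lie below on the left and overlap on the right.

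Ion channel genes gave 5 probe sets of 3 genes. KCNE4, an accessory subunit of potassium channels, read 5.07 at E4, 8.86 at E5, 8.90, 8.71 and 8.12 in the E6 pools, 9.82 and 9.55 at E8, and 9.92 and 9.76 at E10. Its gain of 4.76 was the widest of the channels. The mechanically gated channel PIEZO2 gained 2.54 and 2.56 on its 2 member probe sets, and CACNB4, a beta subunit of voltage-gated calcium channels, gained 2.42 and 2.18.

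Membrane and signalling proteins formed the largest group, 16 probe sets of 11 genes with a median gain of 3.29. LAPTM4B, a membrane protein of lysosomes, read 1.96 at E4, the lowest of all members, 5.32 at E5, 6.07, 4.46 and 4.34 in the E6 pools, 7.02 and 7.28 at E8, and 8.08 and 7.74 at E10. The tetraspanin TSPAN2 gained 5.21. DEPTOR, an inhibitor of the mTOR kinase, gained 4.57. The GPR1 members, for a receptor of chemerin in mammals, gained 4.56 and 3.25, and those of PLXNA4, a semaphorin receptor, 4.31 and 3.33. PTPRM encodes a receptor tyrosine phosphatase that mediates cell adhesion. Its probe set GgaAffx.8848.1.S1_at read 5.62 at E4, 6.82 at E5, 7.01, 6.83 and 6.37 in the E6 pools, 7.31 and 7.82 at E8, and 7.84 and 8.46 at E10. It gained 2.53, and the other PTPRM probe sets that reached 6, none of them members, gained between 1.21 and 1.83. The other members of the group were TM4SF18, EMP2, PTPN3, PITPNM3 and ARHGAP8, which gained between 2.72 and 3.48.

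A further 8 genes had 1 probe set each and gains between 2.13 and 3.75: PALMD, FAM134B (a receptor for the breakdown of endoplasmic reticulum), FAM129A, ANKRD9, RGCCL, LOC772158, CYP2D6 and TVP23A. Of the 14 probe sets without a single gene, GgaAffx.26231.1.S1_at rose from 2.68 at E4 to 9.13 and 9.48 at E10 and Gga.18062.1.S1_at from 5.71 to 11.80 and 11.87. Both are among the 10 widest rises of the set.

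Several member genes are neighbours in the RefSeq annotation of the chicken assembly GRCg7b, which was used for gene order alone. No protein-coding gene lies between COL14A1 and DEPTOR, between COL6A1 and COL6A2, or between LAPTM4B and MATN2. COLEC10 lies 5 protein-coding genes from DEPTOR and 6 from COL14A1, TVP23A lies 2 from EMP2, and PTPN3 lies 7 from FHOD3. How often such pairs occur among other genes was not tested.

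The E5 pool did not enter the E4 to E6 step that chose the members, although it bounded the banding difference. At E5, 68 of 73 members were already at least 2-fold above E4 with no overlap between arrays, against 2.87% of filtered probe sets. The E4 level is shared with the rule, so a high count follows in part from the choice. Between E5 and the E6 pool of both ventricles, which hold the same tissue, the median change was 0.19 and ranged from -1.09 to 2.09. ASB15 was the 1 member at least 2-fold higher, and the COL6A1 probe set GgaAffx.2737.1.S1_s_at the 1 member at least 2-fold lower. By that rule 0.625% of filtered probe sets were higher, and 49 of 20335 were lower.

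Set as a share of the step from E4 to the E6 pool of both ventricles, the level at E5 stood at a median of 91.9%. It was at least 50% in 72 members and at or above 100% in 20. ASB15 was lowest at 38.1%, followed by the CACNB4 probe set Gga.5160.1.S1_at at 60.2% and FHOD3 at 60.5%. The medians were 101% for collagens, 94.5% for other secreted proteins, 86.6% for muscle genes and 80.1% for membrane and signalling genes. With 1 pool at each age, these group medians have no test.

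The late step lay mostly before E8. E8 was above E6 by a median of 1.18, between 0.49 and 3.18, and 50 members differed at least 2-fold with no overlap between arrays, against 1.21% of filtered probe sets. From E8 to E10 the median change was 0.45, between -0.66 and 1.84, and 3 members were at least 2-fold higher, against 0.580%. All normal E8 arrays lay above all E6 arrays in 68 members, against 7.58% of filtered probe sets. Both intervals share a pool age with the rule, which required their sum to reach 1.

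At E8 the members stood at a median of 72.6% of the step from E6 to E10, and at 50% or more in 70 of 73. The median was 73.3% for the left side and 75.7% for the right, and 64 members had passed 50% on both sides. ARHGAP8 was lowest at 43.5%, and FHOD3 stood at 44.4%. Gga.18543.1.S1_at, which has no symbol, had the widest gain from E8 to E10. It read 2.48 at E4, 3.77 at E5, and 3.93, 3.39 and 3.26 in the E6 pools. These pools all lay below the signal filter of 4.09, so its first step of 1.05 rests on weak signal. It read 5.92 and 5.52 at E8, and 7.64 and 7.48 at E10, so that most of its rise came after E6. At the other end, 3 members stood at or above 100%: the COL6A1 probe set GgaAffx.2737.1.S1_s_at at 165%, Gga.4981.2.S1_at at 109% and 1 PTPN3 probe set at 100.1%.

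**Figure D3:**
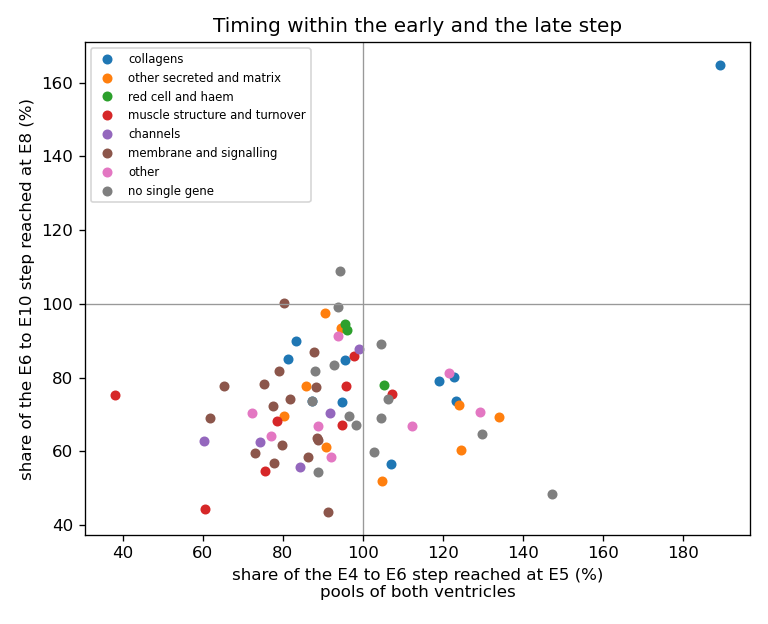
Share of the E4 to E6 step reached at E5 (horizontal axis, %, pools of both ventricles) against the share of the E6 to E10 step reached at E8 (vertical axis, %) for the 73 members, coloured by role; grey lines mark 100%. Most points lie between 60 and 130% across and between 50 and 100% up, ASB15 lies alone at the left with 38.1%, and a COL6A1 probe set lies alone at the upper right with 189% and 165%.

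Banding at day 4 left the members close to normal at E5, which the rule required. The banded pool was higher in 41 members and lower in 32, and differences ran from -0.50 to 0.48. Between the normal left and right pools the differences were likewise bounded by the rule.

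The rule set no limit on the difference between ligated and normal ventricles, though it bounded the left-right difference of the normal E8 pools. In the left ventricle, C1QTNF2 was the only member at least 2-fold higher in the ligated pool with no overlap between arrays. No member was 2-fold lower. Of filtered probe sets, 2.54% were higher and 1.66% were lower. Of the 14089 probe sets that met the limits on level, side and banding, 84 were higher and 135 were lower. The C1QTNF2 difference of 1.0 lay at the limit, and the call was lost after quantile normalization, after median centring and from array 1 alone. On the right no member was 2-fold higher or lower, against 1.98% and 2.19% of filtered probe sets. Of the 14089 probe sets within the limits, 76 were higher and 126 were lower on the right. These counts compare single pools and have no test. The median difference between ligated and normal was -0.10 on the left, with a range from -0.67 to 1.0, and -0.07 on the right, with a range from -0.97 to 0.85; both medians over all filtered probe sets were 0.00.

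The limma fit over all 12 pools, with condition and side as terms and Benjamini-Hochberg adjustment over 20335 probe sets, called no member changed by ligation at an adjusted p under 0.05, where 0.00984% of filtered probe sets were called. At an unadjusted p under 0.05 it marked 8 members, 3 higher and 5 lower, against 13.7% of filtered probe sets. The lowest adjusted p in limma was 0.25, for C1QTNF2. The interaction term of limma, which sets the left-right difference of the ligated pools against that of normal pools, passed in no member, against 0.00984%; its lowest adjusted p over the members was 1.0. The rule had bounded those normal differences in the members, so this term is not independent of the choice and nothing is read from it. At an unadjusted p under 0.05 it marked 1 member, TFPI2, against 1.38% of filtered probe sets. The residual spread of these fits comes from the left-right pairs, which the rule bounded in the normal pools, and from how the E6 pool of both ventricles differs from the single ones. It does not include the variation between repeat pools of the same tissue and condition. A p above the threshold here does not show that a member was unaffected.

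The ligated pool was lower in 43 of 73 members on the left (58.9%, against 50% of filtered probe sets) and in 45 on the right (61.6%, against 49.8%). Both sides were lower in 34 members (46.6%, against 35.2%), both were higher in 19 (26.0%, against 35.4%), and the sides differed in 20 (27.4%, against 29.4%). All ligated arrays lay below all normal arrays on both sides in 22 of 73 members, against 4542 of 20335 filtered probe sets (22.3%). The ligated arrays lay above the normal ones on both sides in 16 of 73 members, against 4400 of 20335 (21.6%). In 9 of 73 members they lay above on one side and below on the other, against 9.61%. By role, 10 of the 16 membrane and signalling probe sets were lower on both sides and 1 was higher on both, and 4 of the 8 muscle probe sets were lower and none higher. The counts were 3 lower and 1 higher of 5 for channels, 4 and 2 of 9 for other secreted proteins, 4 and 4 of 10 for collagens, 3 and 4 of 8 for other genes, 1 and 2 of 3 for red cell and haem genes and 5 and 5 of 14 without a single gene. Members of 1 gene are not independent, the roles were grouped after the names were seen, and none of these counts was tested.

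By the mean over both sides, the widest increases were those of C1QTNF2 and PLAC9. C1QTNF2 read 7.22 in the ligated left ventricle against 6.22 in the normal one, and 7.17 against 6.55 on the right. Its ligated left arrays lay above all normal E8 arrays, at a level near that of E10. The limma estimate was 0.81 ± 0.19 (SE), with an adjusted p of 0.25. PLAC9 read 9.83 against 8.99 on the left and 9.85 against 9.30 on the right, where limma gave 0.70 ± 0.26 and an adjusted p of 0.338. The ligated PLAC9 levels were near those of E10, 9.68 and 9.83.

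The COL6A1 probe set GgaAffx.2737.1.S1_s_at was higher by 0.43 on the left and 0.85 on the right, and GgaAffx.21771.1.S1_at of the same gene by 0.54 and 0.13. GgaAffx.26231.1.S1_at, without a symbol, was higher by 0.46 and 0.69. The RHAG probe set Gga.9086.1.S1_at was higher by 0.24 and 0.77, and the red cell gene EPB42 read 10.72 and 10.95 in the ligated left and right pools against 9.99 and 9.96 in the normal ones. SLC4A1, the anion exchanger of red cells, read 11.04 and 11.08 against 10.91 and 10.29. HBE and HBZ of the red cell list were also higher on both sides, while TFRC read 12.30 and 12.26 against 12.27 and 12.22. HBA1 and HBAD were lower on the left (15.22 and 15.41 against 15.31 and 15.48) and higher on the right. None of the 11 filtered probe sets of that list was 2-fold higher or lower on either side, and the median differences were 0.03 and 0.06. The summed red cell marker level was 17.08 in both left pools, and 17.19 ligated against 17.02 normal on the right. The part of red cell content in the RHAG difference was not tested. None of these passed limma.

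Among the members, the widest decreases by the mean over both sides were those of a PTPRM probe set and a PIEZO2 probe set. On the left alone TVP23A had the lowest value, -0.67, and on the right alone SOUL stood next to PTPRM, at -0.92. The PTPRM probe set GgaAffx.8848.1.S1_at read 6.80 in the ligated left ventricle against 7.31 in the normal one, and 6.85 against 7.82 on the right. Both ligated pools were thus near the normal levels at E5, 6.82, and in the E6 pool of both ventricles, 7.01. The left E6 arrays read 6.70 and 6.96, while the right E6 arrays read 6.22 and 6.53, below both ligated right arrays. The limma estimate was -0.74 ± 0.29 with an adjusted p of 0.351. The other PTPRM probe sets that reached 6, none of them members, differed less. Their differences ran from -0.38 to 0.20 on the left and from -0.83 to -0.25 on the right. The PIEZO2 probe set GgaAffx.24317.1.S1_s_at read 9.14 against 9.60 on the left and 8.97 against 9.84 on the right (adjusted p = 0.431 in limma). The other PIEZO2 probe set, Gga.15119.1.S1_at, was lower by 0.17 and 0.66. LAPTM4B was lower by 0.43 and 0.75, Gga.16106.1.S1_at by 0.49 and 0.65, and the GPR1 probe set GgaAffx.5406.1.S1_at by 0.45 and 0.69.

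Probe sets of 1 gene did not always move alike. Against those values for GPR1, its other member Gga.14890.1.S1_at differed by 0.08 on the left and -0.11 on the right. PITPNM3 was lower by 0.54 on both sides with GgaAffx.3756.4.S1_s_at and higher by 0.08 and 0.18 with Gga.16147.1.S1_at. The 3 COL14A1 members differed by -0.25, 0.08 and 0.27 on the left and by -0.57, 0.27 and -0.0016 on the right. What the probe sets of a gene detect apart from each other is not given in the annotation used here.

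**Figure D4:**
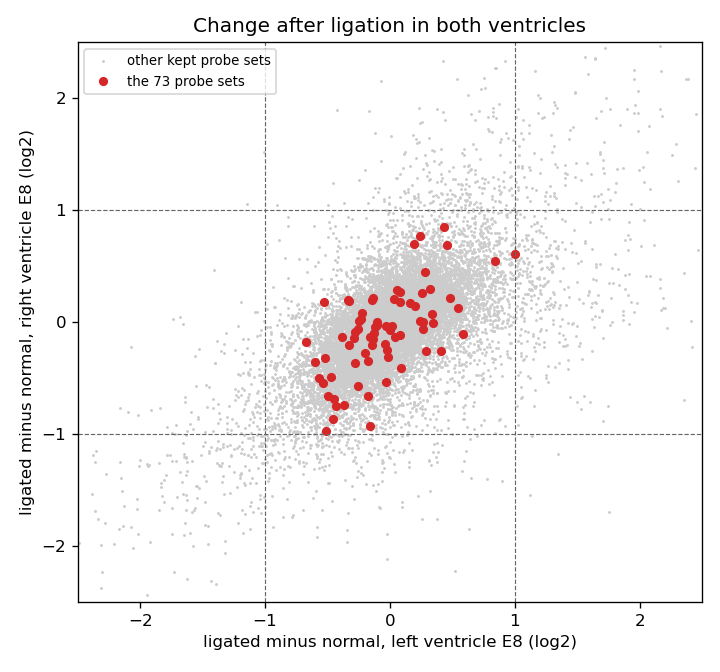
Log2 difference between ligated and normal E8 pools on the left (horizontal axis) and on the right (vertical axis), for the 73 members in red and the other filtered probe sets in grey; dashed lines mark a 2-fold difference, and 97 filtered probe sets lie outside the axes. The members lie within the grey cloud, from -0.67 to 1.0 across and from -0.97 to 0.85 up.

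In the ligated pair, left minus right ran from -0.95 to 1.06 with a median of 0.07. SOUL was the only member at least 2-fold apart between the ligated sides with no overlap between arrays, against 2.08% of filtered probe sets. It read 7.91 on the left and 6.85 on the right, where the normal pools read 8.07 and 7.78. Of the 14089 probe sets within the limits on level, side and banding, 35 were higher on the left and 10 on the right by that rule. With array 1 alone SOUL was no longer 2-fold apart, and a PLXNA4 probe set, GgaAffx.4028.2.S1_s_at, was instead, with the right higher.

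The ligated E8 ventricles stayed above the E6 level in nearly all members. Every ligated array exceeded every E4 array in all 73 members and every E6 array in 60, against 9.55% of filtered probe sets; the rule used E4 and E6. On the scale from the E6 to the E10 stage mean, ligated ventricles stood at a median of 68.4% on both sides and normal ones at 74.4% on the left and 72.2% on the right.

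Gene lists that were set down for this tissue show which related genes joined the members. The matrix and fibroblast list had 54 filtered probe sets and a median gain of 1.23 from E4 to E10; 7 were members, and of the 47 others 23 were at least 2-fold higher and none was lower. OGN, a small proteoglycan of that list, met both steps but not the limit on left-right difference. In the fatty acid list 11 of 18 probe sets were at least 2-fold higher and none was lower. Over all filtered probe sets, 6.70% were higher and 6.47% were lower at E10 than at E4 by the 2-fold rule. Both CD36 probe sets, for a fatty acid transporter, and 1 of FABP5, a fatty acid binding protein, met both steps without meeting the limits on side or banding. The CD36 probe set with the higher level read 5.99 at E4 and 11.70 and 12.75 in the left and right E10 pools.

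In the sarcomere list 7 of 54 probe sets were at least 2-fold higher, MYL10 among them, and 5 were lower. For this and the following lists, the shares over all filtered probe sets were 6.70% higher and 6.47% lower. Calcium handling had 9 of 25 higher and none lower, oxidative phosphorylation 2 of 19 and none lower, and the load and natriuretic list 1 of 6 and none lower. Among endothelial genes 4 of 19 were higher and 3 lower, and among smooth muscle genes 3 of 12 were higher and 2 lower. The macrophage list had 0 of 15 higher and 1 lower, the neural list 0 of 7 higher and 3 lower, and the cell cycle list 0 of 12 in either direction. The thyroid, retinoid and steroid list had 1 of 16 higher and 1 lower. None of these lists other than the matrix and the sarcomere list held a member.

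Several members lay close to the thresholds. For the first step the members just inside were the COL6A1 probe sets Gga.3110.1.S1_x_at (1.0022) and GgaAffx.21771.1.S1_at (1.0055), and those just outside were KLHL34 (0.9934) and HHIPL1 (0.9560). For the second step GgaAffx.2737.1.S1_s_at of COL6A1 (1.0248) and Gga.15119.1.S1_at of PIEZO2 (1.0394) were just inside, and CAV3 (0.9914) and SLIT2 (0.9713) just outside. Within 0.1 of the threshold were 13 members for the first step and 6 for the second.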

How the data were processed

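The table the authors deposited for 24 one-colour arrays holds log2 values, a scale inferred from their range (0.14 to 16.09). GCRMA and MAS5 are named in the submitters' processing notes; which of the pair made the table is not given in the sources used here. GCRMA, where used, presses weak signals towards a floor, so folds of dim probe sets may depend on it. Values were used as deposited; the 2 arrays of a pool were averaged, and the number of arrays limits the precision. After leaving out 96 controls, probe sets whose highest pool mean reached 4.09 were kept. Ligation was tested with limma 3.58.1 (R 4.3.3) on 12 pools, with 7 conditions and side (4 residual degrees of freedom), and an interaction term was added. The 2-fold rule needs pool means at least 1 apart and no overlap between duplicate arrays. The fits were tested on simulated data. Symbols came from the platform annotation (27178 probe sets with 1 symbol, 177 with several, 11180 with none); 58 of 59 member symbols matched RefSeq by gene ID. Summed marker levels are log2 of summed linear values. Named genes are members of the gene lists, the 10 widest rises and the 5 widest ligation changes each way. Members and lists were chosen with earlier results of these data known. Alternatives covered the filter, scaling, a floor, single arrays, fold and rule limits, subsets of pools and limma settings.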

Additional observations from a re-analysis of the deposited data

Results flagged for a closer look

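In 9 of the 73 members both ligated arrays lay above both normal E8 arrays in one ventricle and below them in the other, against 9.61% of filtered probe sets. The difference in ligation change, left minus right, was -0.71 for GgaAffx.5613.1.S1_at, 0.66 for the MATN2 probe set GgaAffx.24443.2.S1_s_at, 0.55 for TFPI2, -0.53 for the ASB18 probe set GgaAffx.26083.1.S1_s_at and -0.52 for Gga.16705.1.S1_at. It was -0.35 for FAM129A, -0.34 for IGFBP2, -0.30 for NRAP and 0.18 for the PLXNA4 probe set GgaAffx.4028.1.S1_at. The arrays are duplicates of single pools. The interaction term in limma, which draws on normal left-right differences that the choice of members bounded, passed in none of the 9, and TFPI2 alone had an unadjusted p under 0.05.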

How the results depend on the processing

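Limma called 0 members for ligation under all 13 alternatives, with 3 to 21 at an unadjusted p under 0.05 and the lowest adjusted p between 0.0567 and 0.338, and 0 for side by ligation under 12; the 70th percentile filter left 64 of the members to test. The array numbers did not pair the samples: correlations between same-numbered arrays lay between -0.0827 and 0.0772 over 66 pairs of pools. With the array number as a replicate block and the pool as a random block, limma called 0 members (16 at an unadjusted p under 0.05) and 957 of all filtered probe sets, against 2 on pool means; that fit differs in using 24 arrays, the random block and the array number together. Without the E6 pool of both ventricles, an alternative chosen after seeing the data, limma called 96 of all filtered probe sets. Without the E6 left and right pools it called 58. Both settings called 0 members. The 10 members named for their ligation change kept their direction in every alternative that tested them; C1QTNF2 and LAPTM4B were not tested under the 70th percentile filter. The 2-fold count in the left ventricle (1, C1QTNF2) became 0 after quantile normalization, median centring, a 70th percentile filter or a 4-fold limit and 4 at 1.5-fold, and ranged from 0 to 1 with either array left out. The right count (0) became 13 at 1.5-fold and ranged from 0 to 2 with either array left out; the count in the ligated pair (1) became 9 at 1.5-fold and 0 at 4-fold, and ranged from 1 to 3, of which the 1 is another member in the opposite direction. The left median of -0.10 became -0.12 with quantile normalization and -0.14 with centring, and lay between -0.0801 and -0.0698 with either array left out. The number of members changed from 73 to 40 with limits of 0.5 on side and banding, to 151 with steps of 0.7 and to 25 with steps of 1.5. It was 68 after quantile normalization, with 65 shared, and 69 or 70 from single arrays, with 60 and 58 shared. The cause of these changes was not tested beyond what each setting does. With E6 as the mean of left and right alone it was 59, of which 58 were shared. With E6 as the pool of both ventricles alone it was 72, of which 61 were shared. Among the members lost there were the RHAG probe set Gga.9086.1.S2_at and Gga.4981.2.S1_at. They read 9.34 and 14.08 in that pool and 10.15 and 14.69 in the E10 mean, less than 1 apart. With 1 pool for each condition, the variation between groups of embryos is unknown.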
